A study of Mus musculus with 4 samples.

Results

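Transcripts of 4 transcription regulators, the GATA factors Gata1 and Gata3, the GATA cofactor Zfpm1 (also called FOG-1) and the repressor Gfi1, were followed in regulatory T cells (Treg) of the mouse spleen. They are 4 of 38924 genes in the deposited count table, and all 4 were among the 14235 genes with enough counts to be tested. The set was built around Gata1, which was selected on these data because it was well measured in resting Treg and lower in activated Treg. Its counts in the 4 libraries are therefore a description, given without a test. Gata3, Zfpm1 and Gfi1 were added by symbol as a related factor and cofactors.

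The study compared resting Treg (rTreg) with activated Treg (aTreg), both of them CD4+ spleen cells with Foxp3, the transcription factor that defines Treg. Each group had 2 libraries from separate animals, made from total RNA with SMART-seq v4, a full-length amplification kit for small amounts of RNA. The labels give no strain, sex, age or treatment of the animals. The labels print the same sorting gate for both groups. The 2 libraries of each group are named A and B by column order. These letters stand for no known pairing or batch, though macrophage markers differed between A and B in both groups.

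GATA factors are zinc finger proteins that bind a short DNA motif with the letters GATA at its core. Gata1 directs the formation of red blood cells, megakaryocytes, mast cells and eosinophils, and in erythroid cells it works in a complex with Tal1, Lmo2 and Ldb1. Gata3 is the GATA factor of T cells: it is needed for T cell development, drives type 2 helper cells and is used by Treg at barrier sites and in inflammation. FOG-1 does not bind DNA alone but docks on a zinc finger of the GATA factors and brings in the NuRD and CtBP repressor complexes. Gfi1 is a zinc finger repressor that recruits the histone demethylase Kdm1a with its partner CoREST, and it cooperates with Gata3 in type 2 helper cells.

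As the 2 GATA genes are the most abundant of the set and Gata1 is the gene it was built around, the 250 bases before the RefSeq start of each are shown (GRCm38.p6, 5′ to 3′ on the gene's own strand). Capitals mark CACCC or its reverse complement GGGTG, the core of the motif of Krüppel-like factors. The Gata1 window lies at chrX:7967911-7968160 on the minus strand and the Gata3 window at chr2:9878601-9878850 on the minus strand.
Gata1: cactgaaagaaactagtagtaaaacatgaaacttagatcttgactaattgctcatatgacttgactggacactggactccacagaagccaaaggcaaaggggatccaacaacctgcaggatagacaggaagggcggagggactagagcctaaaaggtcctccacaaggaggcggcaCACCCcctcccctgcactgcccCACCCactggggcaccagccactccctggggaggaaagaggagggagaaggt
Gata3: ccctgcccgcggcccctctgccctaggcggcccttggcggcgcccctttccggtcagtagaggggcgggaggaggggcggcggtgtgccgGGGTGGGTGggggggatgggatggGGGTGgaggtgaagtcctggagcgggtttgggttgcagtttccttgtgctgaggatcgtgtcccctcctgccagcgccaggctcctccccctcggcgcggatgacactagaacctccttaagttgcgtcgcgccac
The Gata1 window held CACCC at 74 and 52 bases before the start and had a GC content of 54.0%, against a median of 52.4% over 32851 RefSeq windows of the same length. The Gata3 window was richer in GC, at 70.0%, and held GGGTG at 160, 156 and 136 bases before the start, the first 2 of these sharing a base. This motif is common: 52.0% of all windows held it on either strand. Neither window, nor those of Zfpm1 and Gfi1, matched a GATA motif (AGATAA, also with T as its first or G as its last letter, on either strand), which 26.5% of all windows did. The Foxo motif GTAAACA (3.2% of windows) and the Gfi1 motif AATCAC (9.1%) were also not found in the windows of the 4 genes. These letters describe the windows only. The gene annotation used here (GENCODE M21) extends both genes further upstream of these windows, Gata1 to X:7978071 and Gata3 to 2:9890034. Counts per gene do not tell such starts apart.

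Libraries held 20282062 to 31851982 counts, so that 1 CPM (a count relative to its library's size, adjusted by TMM factors of 0.962 to 1.04) stood for 20.3 to 30.6 counts. Without molecular identifiers, a count is an amplified read and not a molecule. T cell markers were high: summed levels of 12 T cell and Treg genes were 8944 and 10370 CPM in resting and 9182 and 11557 CPM in activated libraries, and Foxp3 lay between 35.1 and 38.8 CPM in all 4. Although the printed gate is the same, Cd44, an activation marker named in it, was at 145 and 213 CPM in resting and 329 and 335 CPM in activated Treg. Markers of other spleen cells were present and uneven: 11 plasmacytoid dendritic cell genes summed to 132 and 148 CPM in resting but 1263 and 410 CPM in activated libraries. Macrophage genes (13) summed to 530 and 591 CPM in resting A and activated A, against 16.8 and 73.8 CPM in resting B and activated B.

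Gata1 (ENSMUSG00000031162.8, X:7959260-7978071, minus strand) had 901 and 1654 counts in resting A and B and 769 and 338 counts in activated A and B. Scaled to library size this was 43.8 and 54.0 CPM in resting Treg and 25.2 and 16.7 CPM in activated Treg. The groups did not overlap: activated A and B were each below the lower of the resting libraries, a separation in this direction that 17.4% of all tested genes showed. The group means were 48.9 ± 7.21 and 20.9 ± 5.995 CPM (SD, n = 2 libraries each). The geometric means differed 2.37-fold, a difference that runs from 1.74-fold for the closest pair of libraries to 3.23-fold for the most distant pair. The fitted log2 fold change, activated over resting, was -1.22 with a standard error (SE) of 0.28. Of the 14235 tested genes, 180 (1.26%) had a lower value, where the median of all tested genes was -0.01. In bulk RNA, fewer cells with a transcript and less of it per cell cannot be told apart.

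The authors' regularized log2 table, in which low counts are drawn towards the mean of the gene, gave the same order. Gata1 read 10.04 and 10.32 in resting replicates 1 and 2, and 9.31 and 8.79 in activated replicates 1 and 2. On that scale the groups did not overlap, with a difference of -1.13. As Gata1 was selected on data of these same 4 libraries, this and the following values are a description and no independent support. Leaving out each library in turn kept the fitted log2 fold change between -1.54 and -0.96, and Gata1 differed by -1.27 on the log2 scale when expressed relative to the summed T cell receptor genes Cd3d, Cd3e and Cd3g.

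**Figure D1:**
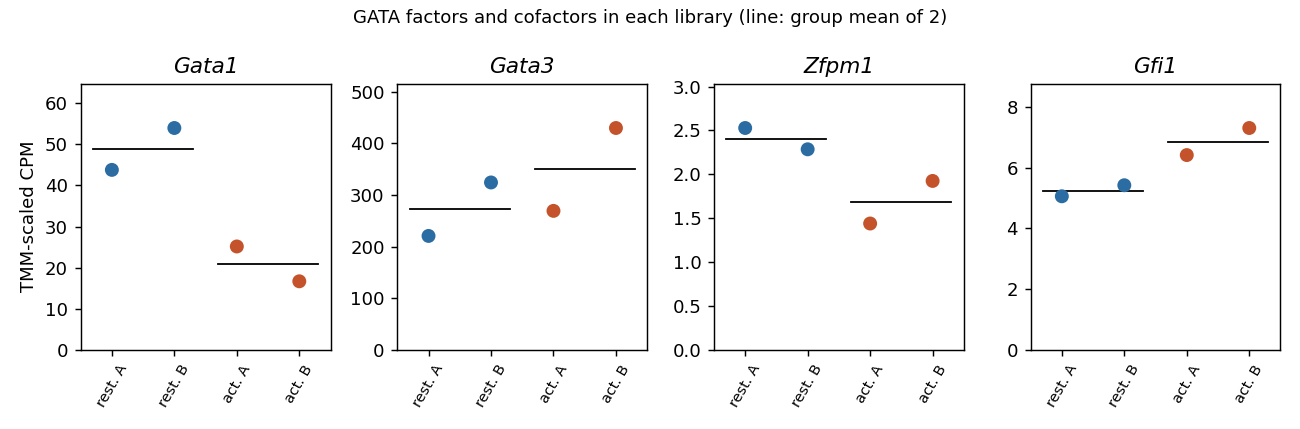
Levels of the 4 genes in each library in TMM-scaled CPM (linear axes from 0, a scale of its own for each gene), with points for libraries and a line for the mean of the 2 libraries of a group. Gata1 lay at 43.8 and 54.0 CPM in resting and at 25.2 and 16.7 CPM in activated Treg, while the Gata3 groups overlapped.

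Gata1 transcripts are textbook markers of other lineages, so the markers of those lineages are given beside its level. The erythroid list (17 genes in the table, globins included) summed to 30.3 and 2.71 CPM in the resting libraries A and B, against 19.6 and 6.51 CPM in the activated ones. Gata1 itself was at 43.8 and 54.0 CPM in resting and 25.2 and 16.7 CPM in activated libraries. Klf1, the erythroid factor that works with Gata1, had 0, 2, 8 and 4 counts in the same order, and between 1 and 4 erythroid genes were at 0 in a library. The 13 megakaryocyte genes summed to 2.19 and 1.37 CPM in resting and 0.981 and 4.49 CPM in activated libraries, with 5 to 9 of them at 0 in a library and the platelet gene Ppbp at 0 in all 4. The 13 mast cell and basophil genes summed to 10.8 and 8.32 CPM in resting and 21.6 and 10.02 CPM in activated libraries. Kit alone gave 2.53, 2.74, 16.1 and 3.45 CPM of these sums in the same order. Of the 13 genes, 4 to 9 were at 0 in a library, and the protease genes Mcpt4, Tpsb2 and Cma1 and the IgE receptor gene Ms4a2 were at 0 in all 4. The 9 eosinophil genes summed to 29.9 and 5.97 CPM in resting and 27.7 and 6.61 CPM in activated libraries, of which Ccr3 alone gave 27.6, 5.42, 24.2 and 5.92 CPM, and 4 or 5 were at 0 in a library. Epx, the eosinophil peroxidase, was at 0 throughout. The sums of these 4 lists overlapped between the groups. Single tested genes of the lists separated the groups in either direction. Both activated libraries were above both resting ones for 2 erythroid, 1 megakaryocyte and 1 mast cell and basophil gene (19.8% of all tested genes). They were below them, as for Gata1, for 2 mast cell and basophil genes and 0 of the other lists (17.4% of all tested genes). Cpa3, a mast cell protease, was at 1.36 and 1.40 CPM in resting and 1.11 and 0.790 CPM in activated libraries, and Cd200r3, a receptor of basophils and mast cells, at 6.13 and 2.38 against 2.32 and 0.345 CPM. Below the filter, Nfe2 of the megakaryocyte list had 10 and 10 counts in resting and 2 and 6 in activated libraries, and Il5ra of the eosinophil list 2 and 3 against 0 and 0. Others below the filter were higher in both activated libraries, among them Tspan33 of the erythroid list (0 and 2 against 8 and 8 counts). Prss34 of the mast cell and basophil list had 3 and 0 against 5 and 27 counts. The part of such cells in the Gata1 level was not tested. Gata1 is X-linked. The X inactivation transcript Xist was at 135 to 263 CPM and the 4 Y-linked genes Ddx3y, Eif2s3y, Kdm5d and Uty were at 0 in all 4 libraries.

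**Figure D2:**
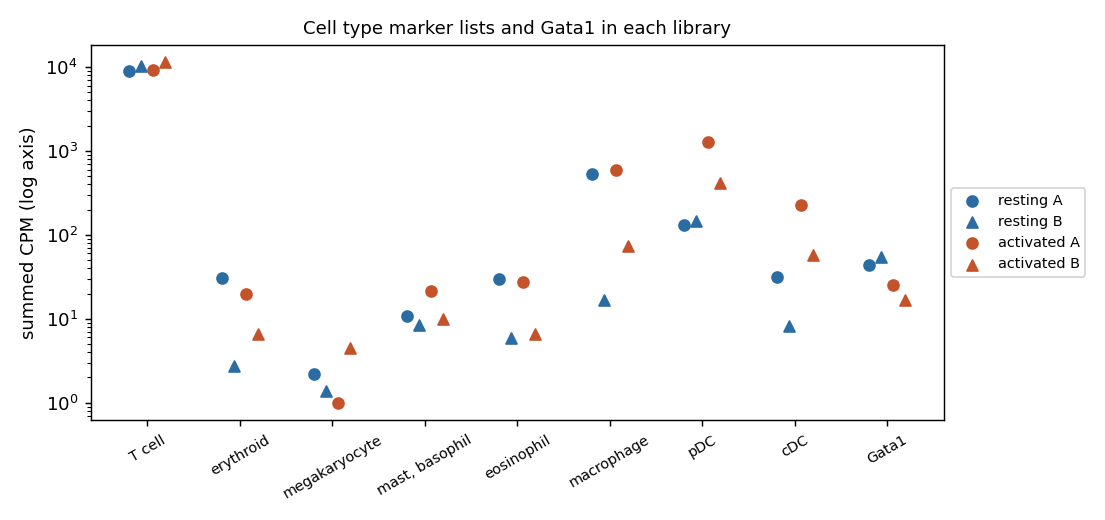
Summed CPM of marker lists for 8 cell types and the level of Gata1 in each library (log axis). The erythroid sum ran from 2.71 CPM in resting B to 30.3 CPM in resting A. Gata1 ran from 16.7 CPM in activated B to 54.0 CPM in resting B. The plasmacytoid dendritic cell (pDC) sum was highest in activated A, at 1263 CPM.

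Gata3 (ENSMUSG00000015619.10, 2:9857078-9890034, minus strand), per exon length the most abundant of the 4 genes, did not separate the groups in CPM. It had 4542 and 9939 counts in resting A and B and 8234 and 8714 counts in activated A and B. Scaled, it was at 220.8 and 324 CPM in resting Treg and at 269 and 430.0 CPM in activated Treg, so activated A lay between the resting libraries. The group means were 273 ± 73.3 and 350 ± 114 CPM (SD, n = 2). Within a group, library B exceeded library A by 1.47-fold in resting and 1.596-fold in activated Treg, each more than the ratio of the group means. The log2 fold change was 0.36 (SE 0.31, interval -0.44 to 1.16, adjusted p = 0.923 by edgeR's quasi-likelihood test with Benjamini-Hochberg adjustment). The interval leaves room for changes in either direction. Without activated B the value was -0.02, and without activated A it was 0.67. Relative to the summed Cd3 genes, a scaling chosen after seeing the data, the Gata3 groups did not overlap, but only narrowly. There Gata3 was at 70.9 and 86.6 CPM per 1000 CPM of Cd3 in resting and 87.8 and 92.1 in activated libraries. The share of all tested genes that separate on this scaling was not computed. Genes that overlap the Gata3 locus had few counts: Gm13256, antisense with 155 shared exon bases, had 4 to 8 counts a library, and 9230102O04Rik and 4930412O13Rik had 0 to 6.

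Zfpm1 (ENSMUSG00000049577.8, 8:122282141-122337251, plus strand), the FOG-1 gene, was measured at low depth, with 52 and 70 counts in resting and 44 and 39 counts in activated libraries. These were 2.53 and 2.29 CPM in resting Treg and 1.44 and 1.92 CPM in activated Treg. The activated libraries were each below the lower resting one, as for Gata1, but the log2 fold change of -0.50 (SE 0.44, interval -1.63 to 0.63) did not pass edgeR's quasi-likelihood test with Benjamini-Hochberg adjustment (adjusted p = 0.925). The group means were 2.41 ± 0.172 and 1.68 ± 0.343 CPM (SD, n = 2).

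Gfi1 (ENSMUSG00000029275.11, 5:107716657-107726036, minus strand) ran the other way. It had 104 and 166 counts in resting and 196 and 148 counts in activated libraries, or 5.06 and 5.42 CPM in resting Treg and 6.41 and 7.30 CPM in activated Treg. Both activated libraries lay above both resting ones, as they did for 19.8% of all tested genes. The log2 fold change of 0.38 (SE 0.32, interval -0.43 to 1.19) did not pass edgeR's quasi-likelihood test with Benjamini-Hochberg adjustment (adjusted p = 0.907). Relative to the summed Cd3 genes the groups overlapped, at 1.62 and 1.45 CPM of Gfi1 per 1000 CPM of Cd3 in resting and 2.09 and 1.56 in activated libraries. The antisense gene A430072P03Rik shares 101 exon bases with Gfi1 and had 1 and 13 counts in resting and 10 and 9 counts in activated libraries. Whether reads were counted by strand is not stated in the sources used here.

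Of the 14235 genes, 0% passed edgeR's adjusted threshold of 0.05 (smallest adjusted p = 0.267, Benjamini-Hochberg), so a miss by Gata3, Zfpm1 or Gfi1 does not show that they were alike in both groups. At an unadjusted p under 0.05 edgeR gave 371 genes lower (2.61%) and 897 higher (6.3%) in activated Treg, none of these 3 among them. DESeq2, run on the same genes, gave 118 of 13959 lower (0.845%) and 324 higher (2.32%) at an adjusted p under 0.05, again without these 3 genes.

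**Figure D3:**
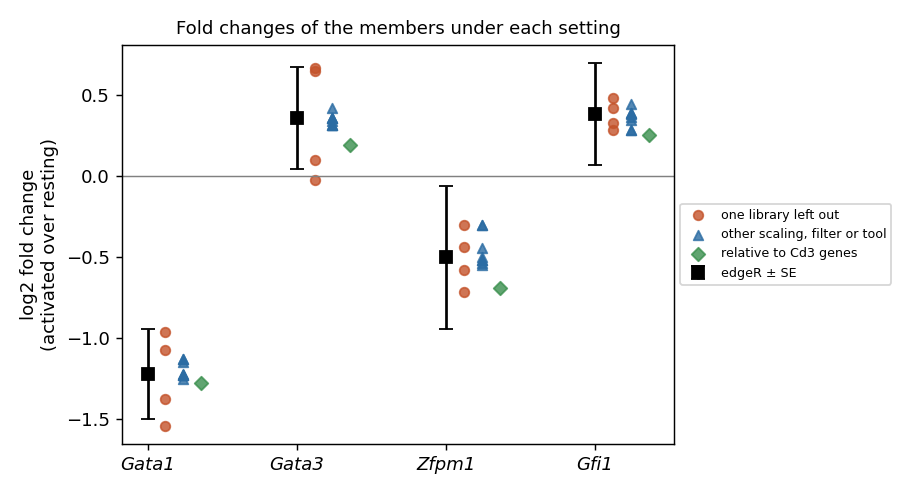
Log2 fold changes (activated over resting) of the 4 genes: the edgeR value with its SE (square), values with 1 library left out (circles), with other scaling, filters or tools (triangles) and relative to the summed Cd3 genes (diamond). Gata1 stayed between -1.54 and -0.96 when a library was left out, and Gata3 ran from -0.02 to 0.67.

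Per exon length the order was the same in each of the 4 libraries: Gata3, then Gata1, Gfi1 and Zfpm1. In TPM (a read count per exon length, scaled to a common library sum, with GENCODE M21 exon lengths), Gata3 was at 158 and 219 in resting and 206 and 292 in activated libraries. Gata1 was at 51.2 and 59.4 TPM in resting and 31.3 and 18.5 TPM in activated libraries. Gfi1 lay between 4.52 and 6.19 TPM and Zfpm1 between 1.25 and 2.06 TPM. The ranges of the 4 genes over the libraries did not overlap. By mean TPM, Gata3 ranked 685, Gata1 3483, Gfi1 9468 and Zfpm1 12383 among 25878 detected genes. The ratio of Gata3 to Gata1 in TPM was 3.09 and 3.68 in resting and 6.56 and 15.8 in activated libraries, so Gata1 made up 24.5% and 21.4% of the summed Gata1 and Gata3 TPM in resting Treg and 13.2% and 5.95% in activated Treg. Since Gata1 was selected for its lower level in activated Treg, this shift follows from that choice together with the higher Gata3 of activated B, and it was given no test. Gata1 exceeded its cofactor gene Zfpm1 24.9-fold and 34.0-fold in resting and 25.1-fold and 12.5-fold in activated libraries.

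**Figure D4:**
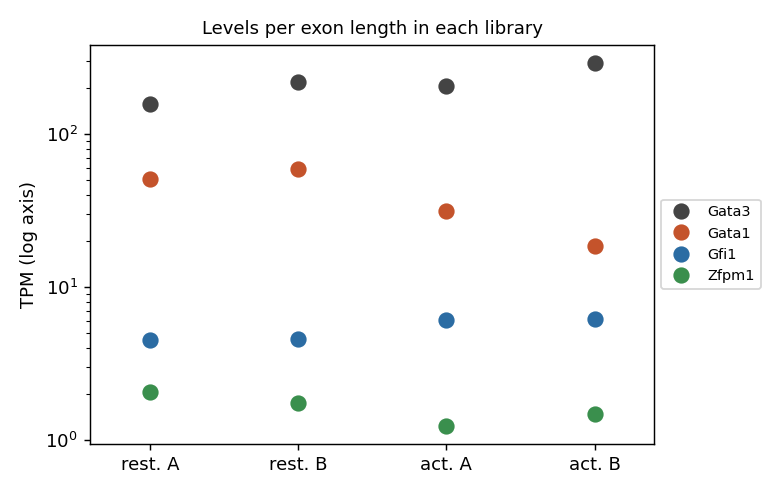
TPM of the 4 genes in each library (log axis). The order Gata3, Gata1, Gfi1, Zfpm1 was the same in each library, and the distance between Gata3 and Gata1 was widest in activated B, a ratio of 15.8.

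Of the other genes of the 3 families, Trps1 was well measured and the rest were at or near 0. Gata2, which acts in stem cells and mast cells, had 0 counts in both resting libraries and 2 and 19 in activated A and B. Gata4, a heart and gut factor, had 17 counts in activated B and 0 elsewhere, and Gfi1b, the erythroid relative of Gfi1, had 8 and 16 counts in the activated libraries and 0 in the resting ones. Activated B had counts in 23398 genes, against 18928 to 19610 in the other libraries, although its total was the smallest. The part of this wider detection in the counts of Gata2, Gata4 and Gfi1b was not tested. Gata5, Gata6 and the second FOG gene Zfpm2 had 0 counts in all 4 libraries, where 3 counts would correspond to 0.0979 to 0.148 CPM. Trps1, an atypical GATA protein that represses, was at 22.7 and 18.0 CPM in resting and 46.1 and 24.6 CPM in activated libraries (log2 fold change 0.80, SE 0.36) and was not called by either tool. Only Trps1, Gata3, Zfpm1 and Gfi1, 4 of the 10 family genes beside Gata1, passed the filter on low counts.

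Among 15 genes of the erythroid Gata1 complex and of factors linked to Gata1, such as Klf1, Fli1, Runx1 and Spi1, 11 passed the filter. Lmo2, Cbfa2t3 and Spi1 passed only with the activated libraries counted. The median log2 fold change of the 11 was -0.09. The scaffold gene Ldb1 was at 54.7 and 53.2 CPM in resting and 49.6 and 51.5 CPM in activated libraries, a log2 fold change of -0.09 (SE 0.17). Fli1, an ETS factor of megakaryocytes and lymphocytes, was at 263 and 284 against 246 and 241 CPM. Ssbp2, which stabilises Ldb1, was at 106 and 92.2 CPM in resting and 115 and 76.1 CPM in activated Treg. Tal1, the DNA-binding partner of Gata1 in erythroid cells, had 2 counts in activated B and 0 elsewhere. The bridging gene Lmo2 was scarce in resting Treg, with 4 and 8 counts (0.194 and 0.261 CPM), and had 111 and 26 counts in activated A and B (3.63 and 1.28 CPM). The corepressor gene Cbfa2t3 was at 0.292 and 0.849 CPM in resting and 6.61 and 3.21 CPM in activated libraries. Neither passed edgeR's adjusted threshold, and DESeq2 gave them log2 fold changes of 3.42 (adjusted p = 0.0323) and 3.08 (adjusted p = 0.00917). The genes of the list under an unadjusted p of 0.05 in edgeR were Lmo2, Cbfa2t3 and Spi1, all 3 higher (6.3% of all tested genes were) and 0 lower. Since all 3 entered the test through the activated libraries, where they are high, this count and the DESeq2 calls (2.32% of all genes higher) support no statement about the list. Spi1, the myeloid factor that antagonises Gata1, had 16 and 5 counts in resting and 116 and 40 in activated libraries. Each of these 3 was higher in activated A than in activated B, as was the plasmacytoid dendritic cell sum (1263 against 410 CPM). The sums of conventional dendritic cell genes (226 against 57.6 CPM) and macrophage genes (591 against 73.8 CPM) ran the same way. The part of any of these cells in the differences was not tested.

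All 17 genes of the NuRD and CtBP complexes that FOG-1 recruits passed the filter, with a median log2 fold change of -0.08. The smallest p-values of the list were those of the remodelling ATPases. Chd3 was at 135 and 125 CPM in resting and 99.2 and 80.3 CPM in activated Treg (log2 fold change -0.54, SE 0.19). It was the single gene of the list under an unadjusted p of 0.05 in edgeR (2.61% of all genes were lower), with an adjusted p = 0.493 (quasi-likelihood test, Benjamini-Hochberg). Chd4 was at 353 and 370 CPM in resting and 249 and 297 CPM in activated Treg (-0.41, SE 0.18). In both genes the groups did not overlap, as in 5 genes of the list that were lower and 1 that was higher, against 17.4% and 19.8% of all genes. The histone binding subunit Rbbp4 (416 and 562 against 396 and 598 CPM) and the deacetylase Hdac1 (263 and 345 against 224 and 274 CPM) overlapped between groups.

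Gfi1 represses through CoREST. Of 13 genes of CoREST and of corepressors listed with it, such as Ehmt2, 12 passed the filter, with a median log2 fold change of -0.16. Of these, edgeR had 0 under an unadjusted p of 0.05 and DESeq2 0 under its adjusted threshold. The demethylase Kdm1a was at 28.2 and 33.7 CPM in resting and 28.8 and 28.8 CPM in activated Treg. Gse1 was at 6.95 and 6.69 CPM in resting and 4.12 and 5.08 CPM in activated Treg (log2 fold change -0.56, SE 0.33). Hmg20b was at 11.5 and 13.9 CPM in resting and 15.2 and 20.1 CPM in activated Treg (0.47, SE 0.28), and Zmym2 varied more within groups than between them (137 and 85.6 against 128 and 74.7 CPM).

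Among genes that act upstream of Gata3 in T cells, the naive T cell factors Lef1 and Tcf7 were lower in activated Treg. All 13 genes of this list passed the filter, with a median log2 fold change of -0.14. At an unadjusted p under 0.05 edgeR had 0 of them higher and 4 lower, against 6.3% and 2.61% of all tested genes. Lef1 was at 799 and 606 CPM in resting and 312 and 294 CPM in activated Treg (log2 fold change -1.21, SE 0.20). Tcf7, its relative, which induces Gata3 in early T cells, was at 917 and 851 CPM in resting and 489 and 539 CPM in activated Treg (-0.78, SE 0.16). DESeq2 called both (0.845% of all genes were called lower), with adjusted p = 9.05e-05 for Lef1 and 0.0072 for Tcf7. Neither passed edgeR's adjusted threshold (quasi-likelihood test, Benjamini-Hochberg, adjusted p = 0.282 for Lef1 and 0.301 for Tcf7). The other 2 of the 4 were Il4ra, the interleukin 4 receptor chain (428 and 382 against 261 and 260.1 CPM), and Myb (19.4 and 31.6 against 13.3 and 15.4 CPM), picked out here after their values were seen. Stat6, which carries the interleukin 4 signal to Gata3, was at 458 and 473 CPM in resting and 426 and 507 CPM in activated Treg. Of the interleukin 2 receptor genes, Il2rb was at 914 and 1313 against 1092 and 1411 CPM, and Il2ra at 1029.7 and 1088 against 921 and 719 CPM.

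Among the type 2 genes that Gata3 serves, DESeq2 called Il4, Il10 and Maf higher in activated Treg, and edgeR called 0 after adjustment. Of 15 genes 11 passed the filter, among them Areg, which would not have passed on the resting libraries alone, and their median log2 fold change was 1.78. Il10, with 8 and 29 counts in resting and 59 and 330 in activated libraries, fell below the filter's limit in resting A. The type 2 cytokine Il4 was at 0.486 and 0.816 CPM in resting and 3.27 and 7.16 CPM in activated Treg, whereas Il13 had 0 counts in all 4 libraries and Il5 2 at most. Maf, a factor that activates Il4 and Il10, was at 35.2 and 91.7 CPM in resting and 192 and 245 CPM in activated Treg (log2 fold change 1.78, SE 0.48). Icos, a costimulatory receptor, was at 131 and 263 CPM in resting and 341 and 549 CPM in activated Treg (1.18, SE 0.41). Klrg1, a receptor of differentiated Treg, was at 5.59 and 50.8 CPM in resting and 61.5 and 280 CPM in activated Treg, and its spread within groups was large (2.59, SE 1.19). At an unadjusted p under 0.05 edgeR had 5 genes of the list higher, Areg and Il10 among them, and 0 lower, where 6.3% of all tested genes were higher and 2.61% lower. As Areg and Il10 passed the filter with the activated libraries counted, where they are high, this count and the list median support no statement about the list. The DESeq2 calls (2.32% of all genes higher) had adjusted p = 0.00406 for Il4, 0.00954 for Il10 and 0.00539 for Maf. Each of these was higher in activated B than in activated A, as were Gata3 and the summed Cd3 genes (4668 against 3067 CPM for Cd3). In 8 of the 11 genes both activated libraries lay above both resting ones, as in 19.8% of all tested genes. In the others, Il1rl1 (72 and 747 against 500 and 609 counts), Hpgds (11.7 and 2.77 against 15.2 and 4.44 CPM) and Junb (15.2 and 22.8 against 19.99 and 39.97 CPM), the groups overlapped.

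Among genes known as targets of Gfi1 repression in blood cells, DESeq2 called Id2, Csf1 and Ccr9 higher in activated Treg, and edgeR called 0 after adjustment. Of 13 genes 10 passed the filter, among them Cebpa and Spi1, which would not have passed on the resting libraries alone, with a median log2 fold change of 1.53. Id2, an inhibitor of E proteins, was at 89.6 and 103 CPM in resting and 244 and 357 CPM in activated Treg (log2 fold change 1.64, SE 0.25). The growth factor gene Csf1 was at 10.01 and 21.9 CPM in resting and 44.6 and 80.6 CPM in activated Treg (1.96, SE 0.49). Itgae, the integrin CD103, was at 31.3 and 88.3 CPM in resting and 111 and 184 CPM in activated Treg (1.30, SE 0.54). Il7r, a Gfi1 target in T cells, overlapped between groups (297 and 173 against 340.1 and 208 CPM). At an unadjusted p under 0.05 edgeR had 6 genes higher and 0 lower, Cebpa and Spi1 among the 6 (6.3% of all tested genes were higher). As Cebpa and Spi1 entered the test through the activated libraries, where they are high, this count and the list median support no statement about the list. The DESeq2 calls (2.32% of all genes higher) had adjusted p = 2.99e-06 for Id2, 0.00296 for Csf1 and 0.0072 for Ccr9. Ccr9 is also a marker of plasmacytoid dendritic cells and was at 146 CPM in activated A against 44.0 CPM in activated B, a difference in the direction of the summed markers of those cells, whose part was not tested.

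**Figure D5:**
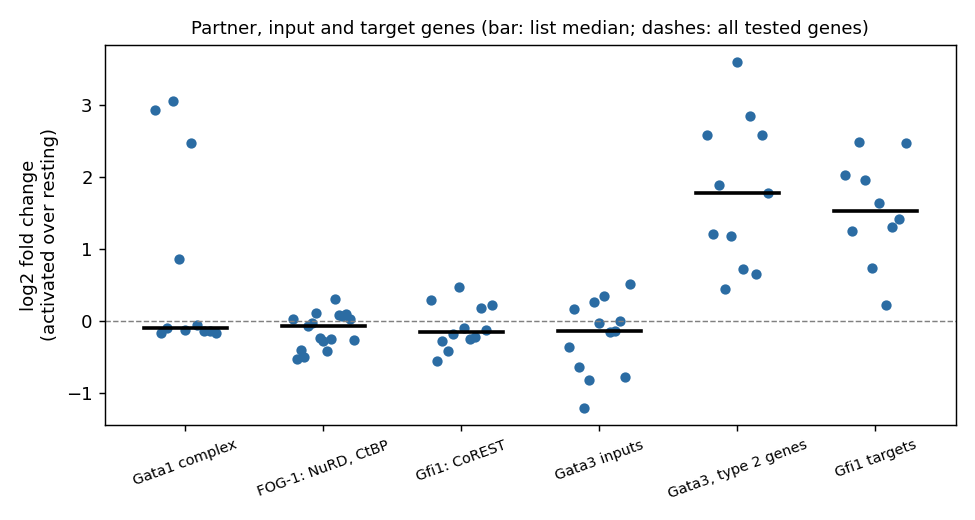
Log2 fold changes (activated over resting, edgeR) of the tested genes in 6 lists of partners, upstream genes and targets, 1 point per gene, with the list median as a bar and the median of all tested genes as a dashed line. The partner lists centre near 0 (medians -0.09, -0.08 and -0.16), and the type 2 and Gfi1 target lists lie higher (1.78 and 1.53). The lists were chosen with earlier results of these data known. Some genes, among them Areg, Cebpa and Spi1, passed the filter only with the activated libraries counted, so the medians support no statement about the lists.

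Over these lists and the family, 75 of 93 genes beside Gata1 passed the filter, and edgeR called 0 of the 75 after adjustment. At an unadjusted p under 0.05 edgeR had 13 higher and 5 lower (6.3% and 2.61% of all tested genes), and DESeq2 called 8 higher and 2 lower (2.32% and 0.845% of all genes). Some of those higher passed the filter only through the activated libraries, where they are high. The lists were also chosen with earlier results of these data known, so these counts support no statement about the lists.

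Genes with the most similar profile over the 4 libraries were found by the distance between log2 CPM values centred on each gene's mean, among 9256 genes, as a description. Nearest to Gata1 was Dnajb4, a heat shock cochaperone (distance 0.169, where the median gene was at 1.34), with 9.09 and 10.9 CPM in resting and 5.82 and 3.31 CPM in activated Treg. The secreted ligand gene Wnt3 (distance 0.232) and Zfp608 (0.300) followed. For Gata3 the nearest were Lrrc41 (0.0138), Pithd1 (0.0340) and Galns, a lysosomal sulfatase (0.0588), and each had its highest CPM in activated B, as Gata3 had. Near Gfi1 were Slc5a6 (0.0412) and Lnx2 (0.0467). Those of Zfpm1 were Marc2 (0.0754), Zfp335 (0.101) and B4galt7 (0.103).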

How the data were processed

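RNA sequencing of 2 resting and 2 activated Treg libraries from mouse spleen was analysed. The authors deposited raw counts per Ensembl gene and a table of regularized log2 values. Per the submitters' processing notes, the mm10 build, STAR 2.4.0c, featureCounts and DESeq2 were used, in roles the notes do not state. Annotation release, strand setting and read filter: not given in the sources used here. Both count columns of a group carry the same replicate number in their headings, so columns were assigned to groups only. The log2 table numbers its replicates. Symbols came from GENCODE M21 (37607 of 38924 identifiers), whose exon lengths gave TPM and may differ from the authors' annotation. Promoter windows came from RefSeq (GRCm38.p6).

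Genes were filtered with filterByExpr (minimum count 10, minimum total 15) and tested with edgeR 4.0.16 (R 4.3.3): TMM scaling, quasi-likelihood F-test on group, prior count 2, Benjamini-Hochberg adjustment over 14235 genes, threshold 0.05. The SE was derived from the fold change and F (its size divided by the root of F), and approximate 95% intervals use 2 residual and 3.10 prior degrees of freedom. The biological coefficient of variation was 0.352. An exact permutation test on single genes cannot go below p = 0.333 here and was not run. P-values measure the spread between these libraries. The script was tested on simulated data. Alternatives were DESeq2 1.42.0, limma 3.58.1, other scalings, filters and prior counts, a replicate block and leaving out each library.

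The genes and lists were chosen with earlier results of these data known, so the lists' directions are no independent support. Named are the 4 genes, their families, from each list the 2 tested genes with the smallest edgeR p and the 2 others with the highest mean log2 CPM, and the 3 nearest profiles per gene (mean of at least 2 log2 CPM, no predicted genes or antigen receptor segments). Other genes named were chosen after their values were seen. Some values these rules call for are not reported here.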

Additional observations from a re-analysis of the deposited data

How the results depend on the processing

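Over all 14235 genes edgeR called 0 with 1268 under an unadjusted p of 0.05, as did limma-voom (0, with 1273) and limma on the regularized log2 values (0, with 1371). Other settings called more: 852 genes by edgeR with no filter on low counts, 442 by DESeq2, and 1552 by limma on the log2 values with the replicate block. Of the 93 listed genes beside Gata1 these called 19, 10 and 26. Leaving out 1 library gave 0 to 370 genes (without activated A 0, without activated B 62, with resting A left out 370, with resting B left out 198) and 0 to 7 listed genes (0, 1, 5 and 7 in that order). The cause was not tested. With 1 library left out the lone sample of a group is assumed to vary like the other group. Gata1 (-1.54 to -0.96), Zfpm1 (-0.72 to -0.30) and Gfi1 (0.28 to 0.48) kept their direction over these, while Gata3 reversed to -0.023 without activated B and reached 0.67 without activated A. Relative to the summed Cd3 genes, a scaling chosen after seeing the data, Gfi1 was at 0.25 and Gata3 at 0.19. Same-numbered samples of the log2 table deviated together (r = 0.65), but the labels describe independent animals and there are only 2 pairs, so the numbers were not taken as pairing. The replicate block gave adjusted p = 0.0835 for Gata3, 0.504 for Gfi1 and 0.527 for Zfpm1 (limma, Benjamini-Hochberg), which changed no call of theirs. Depth limits Zfpm1, with 39 to 70 counts a library, and Gata2, Gata4 and Gfi1b, with 0 to 19.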
